A study of Mus musculus with 4 samples.

Results

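The mRNAs of fibronectin and 7 matricellular proteins were followed across the cell classes of mouse gonadal adipose tissue. The 8 genes, Fn1, Thbs1, Thbs2, Postn, Tnc, Sparc, Cyr61 and Ctgf, were taken by symbol from a count table of 31054 features, and all 8 symbols were found in it. They were chosen by their role and from earlier results of these data. Those results were their levels over the cell classes and the ratios of Fn1 and Postn between tdTomato labels. Both the levels by class and those ratios are therefore given as descriptions. Single-cell RNA was measured in 4 libraries of the stromal vascular fraction, the cells left after fat cells are removed, from male p16-CreERT2/R26-LSL-tdTomato mice 18 months old. All 4 groups shared this genotype and had received tamoxifen, which lets a recombinase driven by the p16 promoter switch on the red protein tdTomato for good, so Tom+ cells are cells in which that promoter was active around the time of tamoxifen. Cells were sorted by CD45, the common leukocyte protein, and by tdTomato into 4 groups of 1 library each, and values for the 4 libraries follow 1 order throughout, called library order: Tom+ then Tom- of the CD45- label, and then Tom+ followed by Tom- of the CD45+ label. The labels do not give the number of animals pooled for a library.

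Fibronectin, encoded by Fn1, is a large glycoprotein that cells assemble into fibrils, to which integrins, collagens and growth factors bind. Matricellular proteins are secreted into the matrix without being structural parts of it, and they tune adhesion, collagen assembly and growth factor signalling. Several of them are induced by TGF-beta, by YAP and TEAD at mechanically loaded cells, or during wound repair, and in adipose tissue they are known chiefly as products of stromal progenitors and as signs of fibrosis, while fibronectin is also made by some macrophages.

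The genes fall into 4 roles. Fn1 (chromosome 1, 71585520 to 71653200, minus strand) is the fibril-forming ligand. Thbs1 (chromosome 2, 118111876 to 118127133, plus strand) and Thbs2 (chromosome 17, 14665500 to 14694235, minus strand) encode thrombospondins, which bind CD47 and CD36, and the product of Thbs1 can activate latent TGF-beta. Postn (chromosome 3, 54361109 to 54391037, plus strand), Tnc (chromosome 4, 63959785 to 64047015, minus strand) and Sparc (chromosome 11, 55394500 to 55423183, minus strand) encode periostin, tenascin C and SPARC, which act on integrin binding and collagen assembly. Cyr61 (chromosome 3, 145646976 to 145649981, minus strand) and Ctgf (chromosome 10, 24595442 to 24598683, plus strand), called Ccn1 and Ccn2 in newer annotation, encode integrin ligands of the CCN family and are classic targets of YAP and TEAD. Positions are from GENCODE vM21 on GRCm38, the assembly also named mm10. All 8 are protein-coding, and none overlaps another gene on its own strand, while Fn1, Thbs1, Tnc and Ctgf each overlap a gene on the other strand.

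Promoter sequence of RefSeq on GRCm38.p6 was at hand for 5 of the 8 genes, and 3 promoters are shown, each as the 250 bases before the start on the gene's strand. Cyr61 is shown as the TEAD target with a match to the TEAD motif CATTCC, and Postn and Thbs2 are shown because their levels ran together across cell classes. Capitals mark matches to the TEAD motif CATTCC (searched on both strands), to the AP-1 motif TGANTCA (both strands) or to the TATA box TATAAA (the gene's strand only).
Cyr61, chr3:145649986-145650235, minus strand: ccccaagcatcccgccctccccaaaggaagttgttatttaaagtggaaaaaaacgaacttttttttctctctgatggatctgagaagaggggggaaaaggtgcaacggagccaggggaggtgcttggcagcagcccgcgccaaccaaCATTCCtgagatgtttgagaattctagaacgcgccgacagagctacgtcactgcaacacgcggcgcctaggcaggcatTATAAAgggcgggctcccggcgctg
Postn, chr3:54360857-54361106, plus strand: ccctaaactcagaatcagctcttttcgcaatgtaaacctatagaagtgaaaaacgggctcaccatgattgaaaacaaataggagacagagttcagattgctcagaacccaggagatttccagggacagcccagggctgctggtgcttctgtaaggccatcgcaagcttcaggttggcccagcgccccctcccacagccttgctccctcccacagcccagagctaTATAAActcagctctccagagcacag
Thbs2, chr17:14694263-14694512, minus strand: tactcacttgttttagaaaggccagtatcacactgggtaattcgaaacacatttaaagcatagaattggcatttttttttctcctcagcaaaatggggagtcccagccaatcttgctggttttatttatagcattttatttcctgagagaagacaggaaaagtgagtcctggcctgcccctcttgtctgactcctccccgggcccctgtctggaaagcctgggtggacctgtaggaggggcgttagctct
The Cyr61 promoter held 1 CATTCC, 103 bases before the start, and a TATAAA 25 bases before it. The Postn promoter held a TATAAA 26 bases before the start and no CATTCC or TGANTCA, and the Thbs2 promoter held none of the 3 motifs. Of 32851 promoters of the same length, 12.6% held CATTCC, 6.75% held TGANTCA and 7.59% held TATAAA, so a match to any of them is common, and none was used in a result.

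The libraries held 3429 to 11255 barcodes and 64083756 to 139397501 unique molecular identifiers (UMIs, 1 per captured mRNA). After the quality filter and removal of likely doublets 13878 cells remained, 1927 to 4391 per library, with a median of 18331 to 19502 UMIs per cell, and they formed 28 clusters. The CD45 label did not separate leukocytes from stroma: 39.0% of the library labelled CD45+ Tom- were APC-like and 18.6% of the one labelled CD45- Tom+ were macrophage-like. The 4 libraries shared 26 to 4394 barcodes per pair. In such pairs the UMI totals of a shared barcode differed by a median of 15.1 to 94.0-fold, and among kept cells 82 of 13878 carried a barcode kept in another library. Leaving those cells out left the main counts of genes given here as they were.

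Levels are CPM: the UMIs of a gene summed over the cells of a class, per 1000000 UMIs of those cells. With 1 library in each group no test between groups is possible and none is given. Bracketed ranges are 95% intervals that cover counting error only, not variation between mice or sorts. In such sums, less of an RNA per cell and fewer cells that make it cannot be told apart, so shares of cells with a UMI are given for the main result. Adipose progenitor cells (APCs) are the Pdgfra-positive stromal cells from which fat cells arise, and 5 clusters of them were recognised: clusters 1 (1151 cells) and 3 (960), cluster 6 (800, with 6 of 7 committed preadipocyte markers raised), cluster 14 (396, with all 6 interstitial progenitor markers raised, Pi16 and Dpp4 among the list) and cluster 16 (289, led by Col1a1, Col1a2 and Col3a1). A further stromal cluster of 826 cells, led by Saa3 and Cxcl13, had markers of both APCs (7 of 8) and mesothelium (8 of 8) raised and is kept without a cell type name, as the Saa3 stromal cluster. The 8 genes took no part in the clustering.

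Across the classes, 7 of the 8 genes were highest in a stromal class in each library apart from the library labelled CD45- Tom-, where 6 were. Among all genes reaching 20 CPM in any class, the share highest in a stromal class was 45.6%, 37.3%, 45.5% and 37.9% in library order. Fn1 was the exception in all 4 libraries under the main settings, with its highest level in macrophage-like cells. In the library labelled CD45- Tom-, Thbs1 was highest in neutrophil-like cells, and in the other 3 it was highest in the Saa3 stromal cluster. Thbs2, Postn and Sparc were highest in APC-like cells in all 4 libraries.

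**Figure D1:**
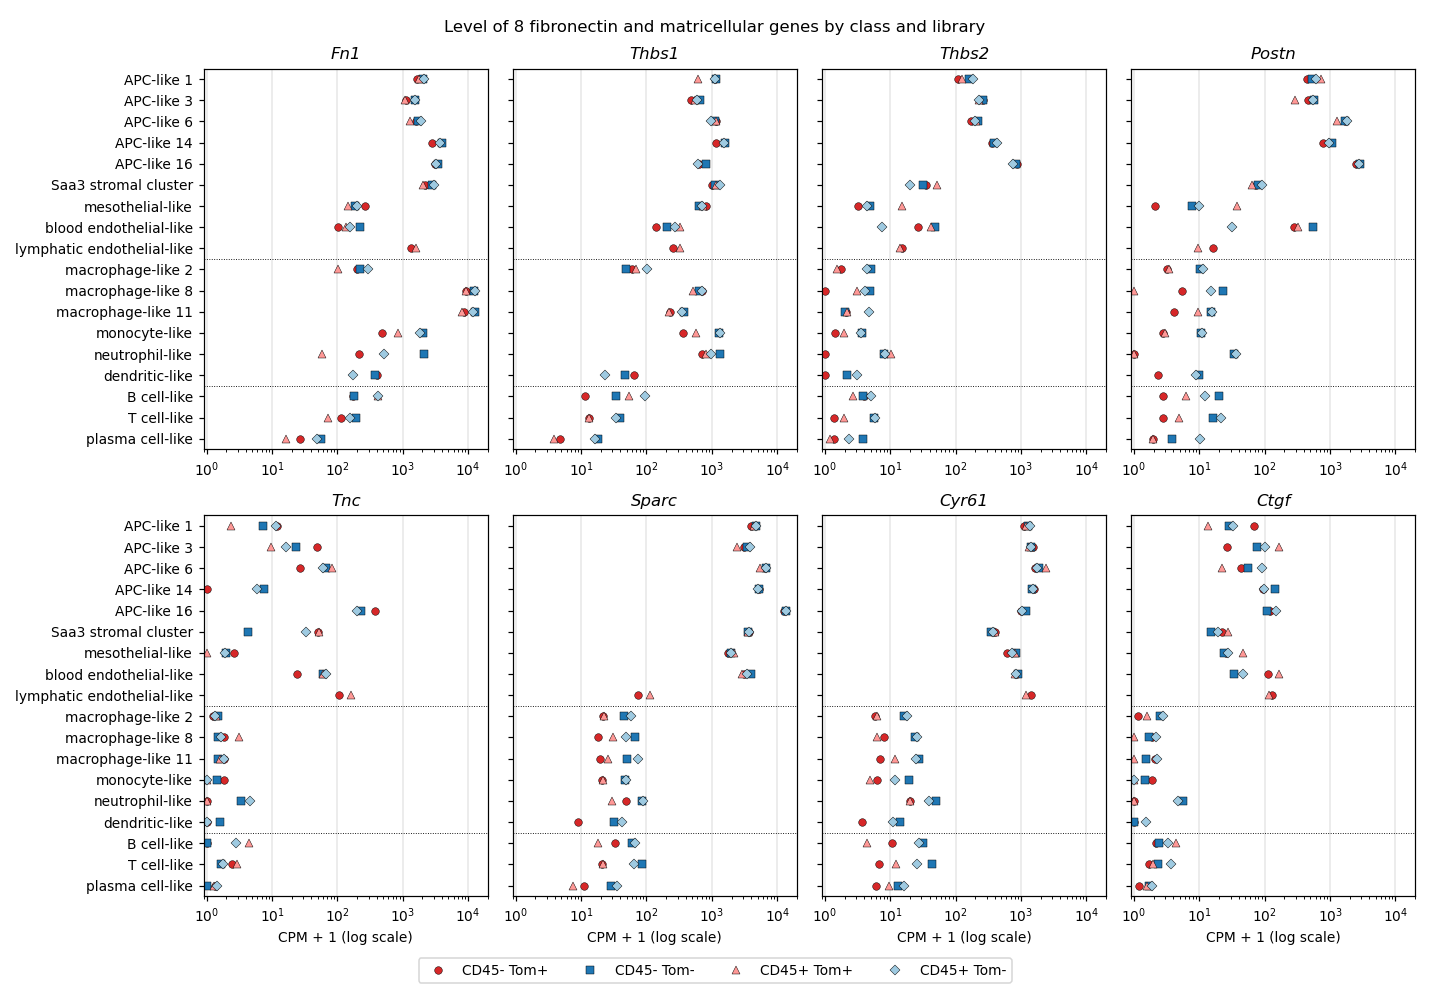
Level of each of the 8 genes (CPM + 1, log scale, horizontal axis) in stromal classes (above the first dotted line) and leukocyte classes (below it, lymphoid last), with 1 point per library holding at least 20 cells of the class. Fn1 lies furthest to the right in macrophage-like clusters 8 and 11, whereas Sparc and Cyr61 of APC-like cells lie far to the right of all leukocyte classes (5704 to 6155 and 1388 to 1475 CPM against 19.9 to 55.8 and 5.37 to 21.4 in macrophage-like cells).

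Fn1 marked a split among macrophages. Of the 3 macrophage-like clusters, cluster 8 (737 cells, led by Arg1, Ccl6, Lyz2 and Mmp12, with Clec4e and Spp1) and cluster 11 (514 cells, led by Arg1, Cd5l, Marco and Vsig4, markers of resident and peritoneal macrophages) had high Arg1, the arginase of alternatively activated macrophages, at 4028 and 6852 CPM. Cluster 2 (1017 cells, with Gpnmb, Trem2 and Mmp12, genes of lipid-associated macrophages, 6 of 7 raised here and all 7 in cluster 8) had Arg1 at 68.9 CPM. In cluster 8, Fn1 was 9159, 12485, 9316 and 12860 CPM in library order. In cluster 11 the levels, in the same order, were 8814, 12689, 8099 and 11814 CPM, and in cluster 2 they were 200, 220, 100 and 298 CPM. The Arg1-high clusters lay above cluster 2 in every library without overlap, by 43.2 to 93.1-fold for cluster 8 and by 39.6 to 80.9-fold for cluster 11, whereas clusters 8 and 11 overlapped each other (0.984 to 1.15-fold).

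The split was also seen cell by cell. After each cell was thinned to 2000 UMIs, 98.8% of cluster 8 cells and 97.7% of cluster 11 cells held a Fn1 UMI, against 19.1% of cluster 2 cells. Before thinning the shares were 99.7%, 99.6% and 66.4%. In B cell-like, T cell-like and plasma cell-like cells, which should not make fibronectin, the thinned shares were 28.3%, 25.9% and 7.49% (60.3%, 58.4% and 52.6% before thinning). Cluster 2 thus lay within the range of those cells after thinning and above it before. In single cells of cluster 8 the Fn1 level ran from 3895 CPM at the 10th percentile through a median of 12135 to 22054 at the 90th, and in cluster 11 from 2361 through 9286 to 18651. In cluster 2 the median cell was at 42.9 CPM, and the 10% of cells with the most Fn1 UMIs held 77.7% of that cluster's Fn1 UMIs.

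Macrophages of the Arg1-high clusters carried more Fn1 than the APCs themselves. APC-like cells had 1824, 2271, 1801 and 2293 CPM in library order, so cluster 8 was 5.02 to 5.61-fold and cluster 11 4.50 to 5.59-fold above them. The cell classes differ in number, and their shares of all Fn1 UMIs moved with the tdTomato label. The parts of cell number and of level in this were not separated. In the Tom+ libraries, clusters 8 and 11 made up 7.62% (CD45- Tom+) and 8.25% (CD45+ Tom+) of cells and held 56.2% and 55.4% of Fn1 UMIs, while APC-like cells held 11.5% and 11.3%. In the Tom- libraries, 9.58% (CD45- Tom-) and 10.1% (CD45+ Tom-) of cells were in clusters 8 and 11 and held 41.0% and 43.3%, while APC-like cells, 41.3% and 39.0% of cells there, held 42.1% and 40.8%. Cluster 2 never held more than 2.50% of Fn1 UMIs.

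**Figure D2:**
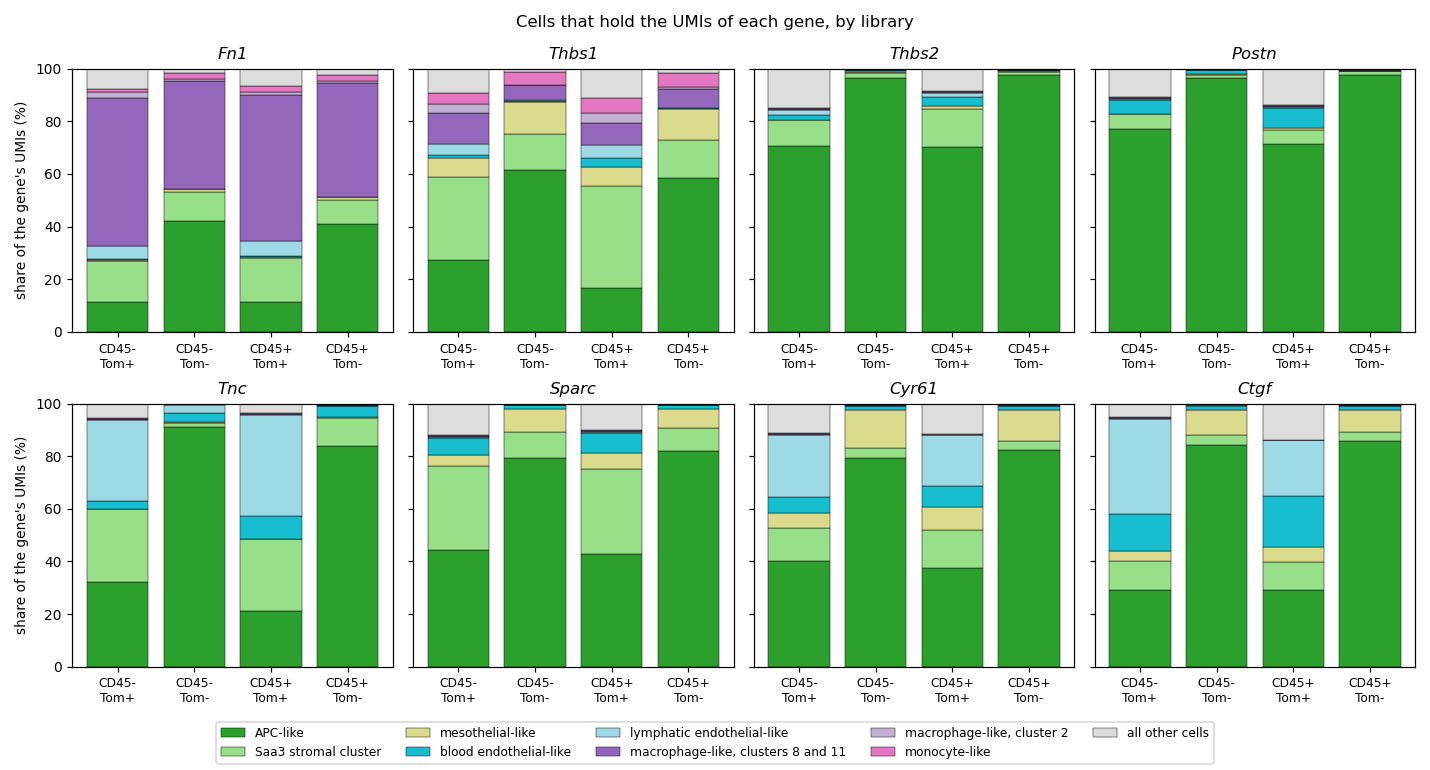
Percent of each gene's UMIs (vertical axis) found in each cell class, 1 stacked bar per library. For Fn1 the segment of macrophage-like clusters 8 and 11 reaches 41.0 to 56.2%, whereas APC-like cells hold the largest segment of Thbs2 and Postn in each library.

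RNA set free from broken cells is captured with every cell, so macrophage values were set against an expected amount of free RNA. The expected level came from 12 stromal reference genes in B, T and plasma cell-like cells of the same library: a class was given as much of each gene as would accompany its own reference gene UMIs in the ratio seen in those lymphoid cells. Over all macrophage-like cells, Fn1 was 19.6, 53.9, 18.8 and 27.2 times the expected level in library order. Of all genes at 20 CPM or more in macrophage-like cells, 16.4%, 33.0%, 14.8% and 22.7% reached 2 times the expected level in these libraries. The excess lay in clusters 8 (45.1 to 78.2 times) and 11 (41.1 to 90.0 times). Cluster 2 was at 1.23, 1.74, 0.65 and 1.11 times the expected level. For the library labelled CD45+ Tom+ the direction of the cluster 2 value turned under 10 of the alternatives, given with the processing.

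The lymphoid ratio was itself high in Fn1. Per 100 UMIs of the reference genes, APC-like cells held 3.45 to 4.26 Fn1 UMIs, against 21.5 to 53.9 in T cell-like, 22.3 to 188 in B cell-like and 9.37 to 34.3 in plasma cell-like cells. Lymphoid cells thus held more Fn1 per reference UMI than APC-like cells did. The nearness of cluster 2 to its expectation therefore holds for the lymphoid ratio and need not hold for the APC-like one. Taking the APC-like ratio in place of the lymphoid one, an alternative chosen after seeing the data, put Fn1 of macrophage-like cells at a log2 ratio of 7.75 to 7.97 over expectation. With likely doublets kept, the log2 ratio was 2.43, 2.75, 2.62 and 2.25 in library order, against 4.29, 5.75, 4.23 and 4.76 in the values above, the lowest of the alternatives run.

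**Figure D3:**
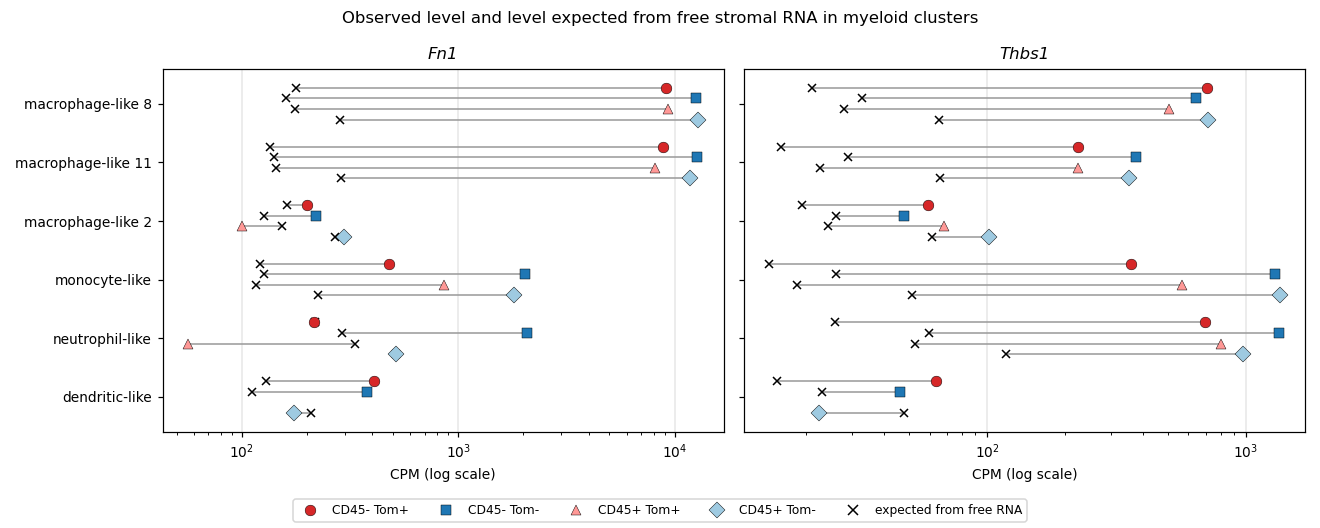
Observed level (coloured points, 1 per library) and level expected from free RNA at the lymphoid ratio (crosses) of Fn1 and Thbs1. Leukocyte classes are shown, in CPM on a log axis. Fn1 of macrophage-like clusters 8 and 11 lies 41.1 to 90.0 times to the right of its crosses and that of cluster 2 at 0.65 to 1.74 times, and Thbs1 of monocyte-like cells lies 24.9 to 49.5 times to the right.

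Monocyte-like and neutrophil-like cells gave less even Fn1 values. Monocyte-like cells had 481, 2040, 858 and 1815 CPM in library order, at 3.95, 16.1, 7.38 and 8.07 times the free RNA expectation. Neutrophil-like cells had 216, 2089, 56.5 and 518 CPM from 21, 85, 23 and 123 cells. The neutrophil-like cells of the library labelled CD45- Tom- were at 7.21 times the expectation, and those of the other 3 libraries at 0.986, 0.17 and 1.0 times.

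In the stroma, Fn1 was spread unevenly. Among clusters with at least 20 cells in a library, the interstitial cluster 14 had 2763, 3968 and 3746 CPM in library order, the CD45+ Tom+ library holding under 20 of its cells, and cluster 16 had 3120, 3412 and 3231, so their ranges overlapped. Cluster 14 was 2.41 to 2.61-fold above cluster 3, the lowest APC-like cluster. The Saa3 stromal cluster had 2201, 2758, 2029 and 2981 CPM and lay 8.20 to 15.1-fold above mesothelial-like cells, which had 268, 188, 146 and 197 CPM, although both carried all 8 mesothelial markers. Lymphatic endothelial-like cells, present in number only in the Tom+ libraries (178 and 85 cells), had 1345 and 1584 CPM, while blood endothelial-like cells had 101 to 224 CPM.

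Thbs1, whose product is the thrombospondin of platelets and activated stroma, was shared between stroma and inflammatory leukocytes. APC-like cells had 953, 1061, 657 and 971 CPM in library order, the Saa3 stromal cluster had 1000.5, 1129, 1156 and 1350.5, and mesothelial-like cells had 815, 641, 728 and 700. APC-like cells and mesothelial-like cells overlapped here, where their Fn1 levels did not. Within the APCs cluster 14 was again high, at 1159, 1612 and 1539 CPM in the 3 libraries with at least 20 of its cells, 2.46 to 2.63-fold above cluster 3.

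Among leukocytes, Thbs1 followed a different order from Fn1. Monocyte-like cells had 360, 1296, 568 and 1350 CPM, neutrophil-like cells 694, 1338, 801 and 977, macrophage-like cluster 8 706, 639, 505 and 713, cluster 11 225, 377.3, 224 and 352, and cluster 2 59.0, 47.6, 68.2 and 101. Cluster 8 was 7.03 to 13.4-fold above cluster 2, and its range did not overlap that of cluster 11, whereas the Fn1 ranges of the pair overlapped. Against free RNA, Thbs1 stood at 24.9 to 49.5 times expectation in monocyte-like cells, 8.29 to 26.7 times in neutrophil-like cells, 10.9 to 33.4 times in cluster 8 and 1.65 to 3.05 times in cluster 2. Even so, APC-like cells and the Saa3 stromal cluster together held most Thbs1 UMIs: APC-like cells 27.3%, 61.3%, 16.7% and 58.4%, and the Saa3 stromal cluster 31.7%, 14.03%, 38.5% and 14.4%.

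Thbs2, which encodes the thrombospondin of fibroblasts and limits matrix-degrading enzymes by clearing them, was highest in APC-like cells. Its level was 275, 300, 327 and 290 CPM in APC-like cells against 19.4 to 50.9 in the Saa3 stromal cluster, 6.58 to 48.2 in blood endothelial-like and 2.18 to 14.2 in mesothelial-like cells. APC-like cells held 70.6% and 70.3% of Thbs2 UMIs in the Tom+ libraries, where the Saa3 stromal cluster held 9.76% and 14.3%. In macrophage-like cells it was 0.735 to 3.37 CPM, at 0.378 to 0.992 times the free RNA expectation. APC-like cluster 16 had 872, 845 and 754 CPM in the 3 libraries with at least 20 of its cells, 4.10 to 8.01-fold above cluster 1. The thrombospondins differed in where they were found: APC-like over Saa3 stromal levels ran from 6.42 to 14.9-fold for Thbs2, whereas the Thbs1 levels of the pair overlapped.

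Postn, whose periostin cross-links collagen and marks matrix-making fibroblasts, followed Thbs2. APC-like cells had 1087, 1143, 1117 and 1156 CPM, 13.004 to 17.5-fold above the Saa3 stromal cluster. Cluster 16 was highest at 2472, 2868 and 2758 CPM, 5.00 to 5.32-fold above cluster 3, and the committed cluster 6 followed at 1668, 1672, 1291 and 1796. Blood endothelial-like cells had 281, 541, 320 and 30.7 CPM, but the 10% of cells with the most UMIs held 92.5% of their Postn, and markers of mural cells (6 of 7) were raised in the larger of the clusters that make up this class, so how far those cells carry the value was not tested. In macrophage-like cells Postn was 2.66 to 15.3 CPM and 0.554 to 1.25 times the free RNA expectation.

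Sparc, a collagen-binding protein of stroma and endothelium, varied little between libraries. APC-like cells had 5704, 6015, 6122 and 6155 CPM, 2.85 to 3.23-fold above mesothelial-like cells. Cluster 16 reached 12695, 13670 and 13802 CPM, 3.63 to 4.15-fold above cluster 3. The endothelia parted on this gene: blood endothelial-like cells had 3112, 3918, 2938 and 3441 CPM and lymphatic endothelial-like cells 72.4 and 114, a 43.0 and 25.8-fold difference in the Tom+ libraries. Macrophage-like cells had 19.9 to 55.8 CPM at 0.423 to 0.961 times the free RNA expectation, below the expectation in all 4 libraries.

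Tnc, whose tenascin C appears at wounds and in tendon and is otherwise scarce in the adult, was found in few cells. In APC-like cells it was 63.5, 49.5, 52.7 and 43.8 CPM, 13.5% of cells held a UMI, and the 10% of cells with the most UMIs held 96.9% of them. Cluster 16 was highest at 380, 227 and 199 CPM, 18.6 to 36.1-fold above cluster 1. The Saa3 stromal cluster held 27.5% and 27.3% of Tnc UMIs in the Tom+ libraries. In the Tom- libraries blood endothelial-like cells had the highest class level, 59.4 and 65.1 CPM. Lymphatic endothelial-like cells had 103 and 163 CPM in the Tom+ libraries and held 30.4% and 38.4% of all Tnc UMIs there, 58.1 and 62.9 times the free RNA expectation. Tnc in macrophage-like cells was at 0.452 to 0.617 CPM from 5 to 8 UMIs per library, too few to compare.

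The CCN genes had a broader stromal range. Cyr61 was 1388, 1475, 1391 and 1443 CPM in APC-like cells, 3.44 to 4.32-fold above the Saa3 stromal cluster, and highest in the committed cluster 6 at 1618, 1887, 2381 and 1765 CPM. Cluster 6 was 1.56 to 1.71-fold above cluster 16, whereas cluster 16 was the higher of the pair for Fn1, Thbs2, Postn, Sparc, Tnc and Ctgf. Lymphatic endothelial-like cells reached APC levels at 1407 and 1205 CPM and blood endothelial-like cells had 802 to 884. In macrophage-like cells Cyr61 was 5.37 to 21.4 CPM, 0.154 to 0.722 times the free RNA expectation.

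Ctgf had APC-like levels of 60.6, 66.7, 93.1 and 78.9 CPM. Cluster 16 (120, 106 and 148 CPM), cluster 14 (93.0, 144 and 96.8 CPM) and lymphatic endothelial-like cells (129 and 114 CPM) had overlapping ranges. Blood endothelial-like cells had 110, 33.4, 165 and 45.3 CPM in library order, higher in Tom+ in both pairs. Their Tom+ over Tom- log2 ratios were 1.72 [1.20, 2.28] and 1.86 [1.43, 2.31]. Between CD45 labels the log2 ratios were 0.58 for Tom+ and 0.44 for Tom-. The make-up of this class moved with the tdTomato label: its smaller cluster, led by Vwf, had 15, 0, 12 and 2 cells in library order. The part of that cluster in the Ctgf ratios was not tested. Lymphatic endothelial-like cells held 36.1% and 21.0% of Ctgf UMIs and 23.6% and 19.2% of Cyr61 UMIs in the Tom+ libraries with the CD45- and CD45+ label. Both CCN genes are also induced by tissue dissociation. Genes of the dissociation response (14, among them Fos at 5053, Egr1 at 4529 and Jun at 4164 CPM in APC-like cells) summed to 30222 to 32184 CPM in APC-like and 6951 to 8221 CPM in macrophage-like cells, with none of the 14 at 0, and their part in the Cyr61 and Ctgf levels was not tested.

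Across 66 sums of a class or cluster in a library with at least 50 cells, some genes ran closely together. The correlation of log2(CPM + 1) was 0.95 for Thbs2 with Postn and for Cyr61 with Ctgf, and 0.78 for Fn1 with Thbs1, whereas Fn1 correlated at 0.27 to 0.41 with the other 6. These sums share libraries, cells and depth, so the values are descriptions. Among 10852 genes, those most like Fn1 were Fam20a (0.84), Dram1 (0.84) and Slc7a2 (0.83), the last an arginine transporter that was among the leading genes of macrophage-like cluster 11. Thbs1 was most like Ifitm3 (0.90), Mmp14 (0.87) and Cdc42ep2 (0.87), Thbs2 most like Igsf10, Postn and Mmp2 (0.95 each), and Postn most like Thbs2 (0.95), Col15a1 (0.95) and Aoc3 (0.94). Tnc was most like Snai1 (0.88), Ramp2 (0.87) and Tead2 (0.87), with a lower likeness than the other stromal genes reached. For Sparc these were Bgn, Col5a2 and Igfbp7 (0.98 each), for Cyr61 Lamb1, Lama4 and Igfbp7 (0.98 each), and for Ctgf Nr2f2, S100a16 and Fbln5 (0.96 each).

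The study sorted by tdTomato to compare p16-high with p16-low cells. From its ligand-receptor analysis the paper reported more fibronectin and periostin in p16-high APCs, a measure unlike the CPM ratios given here. In APC-like cells the count of the 8 genes that differed between Tom+ and Tom- depended on 1 cluster. Fold is called here at a log2 ratio of at least 0.5 in size, Tom+ over Tom-, within a pair of libraries with the same CD45 label. In the pair labelled CD45-, 0 of the 8 genes passed it in either direction, against 2.66% of 9910 genes higher and 2.29% lower in Tom+. In the pair labelled CD45+, 1 of 8 (Thbs1, lower) passed, against 4.36% of 9831 genes higher and 4.83% lower. These counts leave out cluster 23, which had markers of APCs (6 of 8) and of plasma cells (4 of 7) raised and lay mostly in the Tom+ libraries (69, 5, 25 and 4 cells in library order). With cluster 23 counted as APC-like, an alternative chosen after seeing the data, 5 of 8 genes were lower in Tom+ past the fold in the pair labelled CD45-, namely Fn1 (-0.65), Thbs1 (-0.56), Thbs2 (-0.52), Postn (-0.54) and Ctgf (-0.59). In the pair labelled CD45+, 2 of 8 were then lower, Fn1 (-0.70) and Thbs1 (-0.69). The shares of all genes given above leave out cluster 23, so the counts with it have no such share beside them and are descriptions. Without cluster 23, the median log2 ratio of the 8 genes was -0.11 and -0.03 in the pairs labelled CD45- and CD45+. Over all genes it was -0.03 and -0.04.

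Fn1 was lower in Tom+ in both pairs by a similar amount. From the APC-like levels given above, its log2 ratio was -0.32 [-0.35, -0.29] in the pair labelled CD45- and -0.35 [-0.39, -0.31] in the pair labelled CD45+. The libraries with the same tdTomato label and different CD45 labels give a yardstick: for Fn1 their log2 ratio was -0.02 for Tom+ and 0.01 for Tom-. Whether the CD45- and CD45+ libraries are independent was not tested. The CD45 label did not separate their cells, and the Tom- libraries shared 4394 barcodes, the most of any pair. A small yardstick, or likeness of the pairs, therefore need not show the variation between sorts. Within single APC-like clusters of at least 20 cells Fn1 was below 0 in 5 of 5 clusters of the pair labelled CD45- (-0.52 to -0.11) and in 3 of 3 of the pair labelled CD45+ (-0.58 to -0.29). The clusters of a pair are cells of the same libraries and so are not replicates, and the Fn1 ratio was known when the gene was chosen. With 1 library per group, a difference between sorts, pools or mice and a difference with p16 cannot be told apart.

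Outside the APCs, free RNA differed between the libraries as well, and its part in the Fn1 ratios of low-level classes was not tested. In the Saa3 stromal cluster the ratios were -0.33 [-0.36, -0.29] and -0.55 [-0.59, -0.52], and in monocyte-like cells -2.09 [-2.18, -1.99] and -1.08 [-1.19, -0.98]. Mesothelial-like cells went both ways, at 0.51 [0.37, 0.65] and -0.44 [-0.68, -0.20].

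For the other genes the yardstick was often as large as the ratio. Thbs1 had log2 ratios of -0.15 [-0.19, -0.11] and -0.56 [-0.63, -0.49] in the pairs labelled CD45- and CD45+, but the same gene differed by -0.54 [-0.62, -0.46] between the CD45+ and CD45- libraries of the Tom+ label, so its value past the fold was as large as the gap between libraries of the same tdTomato label. Tnc was 0.36 [0.19, 0.52] and 0.27 [0.01, 0.52], with yardsticks of -0.27 and -0.18. Its direction turned under 1 of 11 alternatives in the pair labelled CD45- (down to -0.13) and under 3 of 11 in the pair labelled CD45+ (down to -0.38), and by APC-like cluster its ratios ran from -2.96 to 1.10. The lowest of these Tnc ratios, in cluster 1 of the pair labelled CD45+, rests on 1 UMI from 30 Tom+ cells [-8.27, -0.46]. Sparc, Postn and Cyr61 lay between -0.09 and -0.01 in both pairs, and their yardsticks between -0.03 and 0.10. Thbs2 (-0.13 and 0.17) and Ctgf (-0.14 and 0.24) had opposite signs in the pairs, but Thbs2 of the pair labelled CD45+ turned to -0.33 with cluster 23 counted and to -0.06 with 1 mix of APC-like clusters. Ctgf had a yardstick of 0.62 [0.38, 0.86] for Tom+, and by APC-like cluster its Tom+ over Tom- ratios ran from -2.05 to 1.31.

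**Figure D4:**
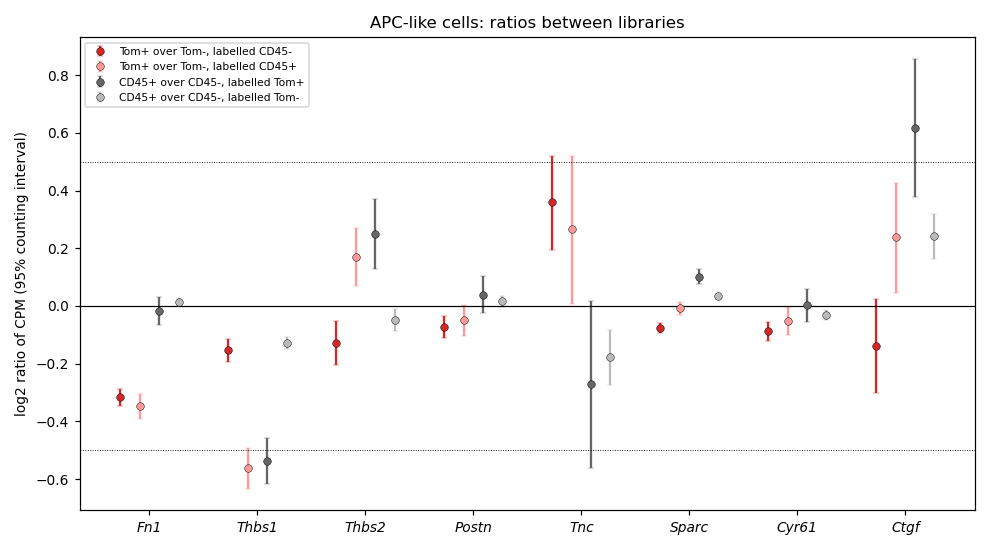
Log2 ratio of CPM in APC-like cells (vertical axis) for each gene, with 95% counting intervals as bars, for Tom+ over Tom- in both CD45 pairs (red shades) and for CD45+ over CD45- at the same tdTomato label (greys). Fn1 lies at -0.32 and -0.35 with yardsticks of -0.02 and 0.01, and of the Tom+ over Tom- points only that of Thbs1 in the CD45+ pair passes the dotted lines at 0.5 in size, with a yardstick of -0.54.

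In macrophage-like cells 5 of the 8 genes reached a mean of 5 CPM, and all 5 (Fn1, Thbs1, Postn, Sparc and Cyr61) were lower in Tom+ past the fold in both pairs, against 5.41% and 6.81% of all genes lower and 3.83% and 4.0% higher in the pairs labelled CD45- and CD45+. Thbs2, Tnc and Ctgf were too low to be counted. Postn reached the mean of 5 CPM only through the Tom- libraries (2.66 and 3.45 CPM in Tom+, 15.3 and 12.7 in Tom-), so it could only be called lower. Fn1 and Postn were also chosen with their ratios between tdTomato labels known, so the count of genes past the fold is a description. Fn1 was 3120 against 7719 CPM in the pair labelled CD45- (log2 ratio -1.31) and 2901 against 7583 in the pair labelled CD45+ (-1.39). The make-up of the class moved with the label: cluster 2 was 425 of 721 and 209 of 368 macrophage-like cells in the Tom+ libraries, but 164 of 516 and 219 of 663 in the Tom- libraries. With both libraries of a pair set to 1 mix of the 3 clusters, an alternative chosen after seeing the data, the Fn1 ratios were -0.47 and -0.52 and those of Thbs1 -0.03 and -0.54, and 3 and 5 genes passed the fold.

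Postn, Sparc and Cyr61 of macrophage-like cells lay at 0.154 to 1.25 times the free RNA expectation. Their macrophage-like ratios were -2.52 and -1.88 for Postn, -1.46 and -1.29 for Sparc and -1.94 and -1.74 for Cyr61. The stromal reference genes for free RNA were lower in Tom+ macrophage-like cells as well, 8 of 9 tested past the fold in the pair labelled CD45- (median -1.79) and 9 of 9 in the pair labelled CD45+ (median -2.08). The Tom+ libraries held fewer APC-like cells (6.69% and 5.40%) than the Tom- libraries (41.3% and 39.0%). With the expected free RNA subtracted, 2 genes passed the fold in each pair, with no share over all genes beside that count. The part of free RNA in the lower Tom+ values was not tested.

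Within the Arg1-high clusters the Fn1 difference was smaller and alike in both pairs. Cluster 8 gave log2 ratios of -0.45 [-0.47, -0.42] and -0.47 [-0.50, -0.43], with yardsticks between CD45 labels of 0.02 and 0.04. Cluster 11 gave -0.53 [-0.55, -0.50] and -0.54 [-0.57, -0.52], with yardsticks of -0.12 and -0.10. Cluster 2, near the level expected from the lymphoid ratio, which was itself high in Fn1, gave -0.14 and -1.57. For Thbs1, cluster 8 gave 0.14 [0.05, 0.23] and -0.50 [-0.63, -0.36] and cluster 11 -0.74 [-0.89, -0.60] and -0.65 [-0.83, -0.48].

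**Figure D5:**
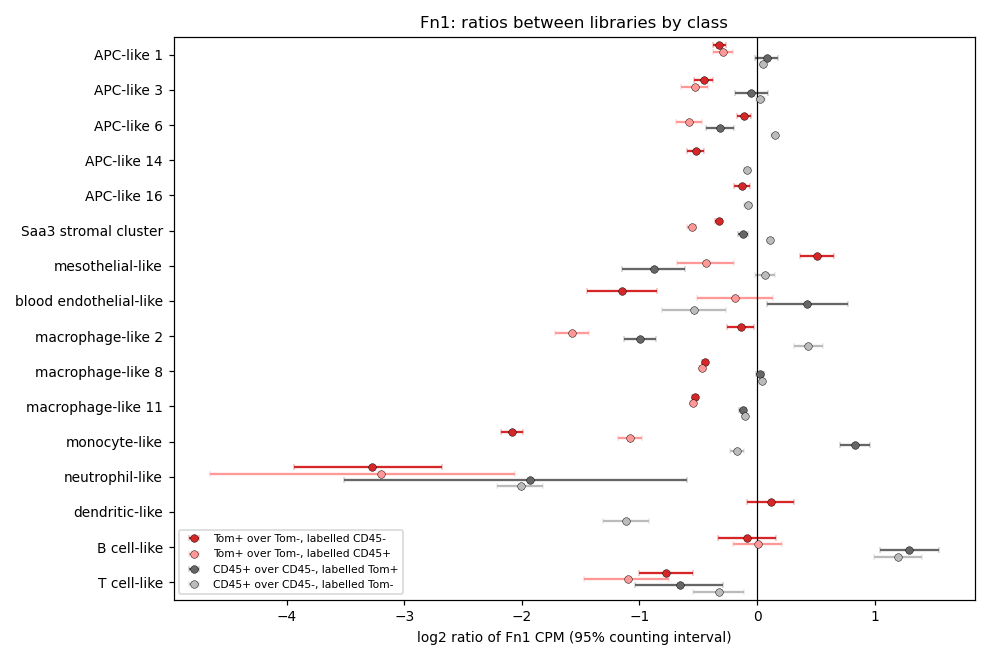
Log2 ratio of Fn1 CPM (horizontal axis) by class and cluster, with 95% counting intervals, for Tom+ over Tom- in both CD45 pairs (red shades) and for CD45+ over CD45- at the same tdTomato label (greys). The red points of the APC-like clusters and of macrophage-like clusters 8 and 11 lie left of 0, and the grey points of clusters 8 and 11 lie between -0.12 and 0.04.

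Genes of the same pathways were compared in APC-like cells without cluster 23, where 2.66% of all genes were higher and 2.29% lower past the fold in the pair labelled CD45-, and 4.36% and 4.83% in the pair labelled CD45+. Of 20 other matricellular genes, 15 could be compared in the pair labelled CD45- and 16 in the pair labelled CD45+, and 1 was higher and 1 lower past the fold in each, with medians of -0.23 and -0.14 beside -0.03 and -0.04 over all genes. Below 0 were 11 of 15 and 11 of 16. The most abundant in APC-like cells were Fbln2 (2127 CPM), Fstl1 (1698) and Sparcl1 (1164). The largest ratios of the pair labelled CD45- were those of Nov, a CCN gene (-0.56, and -0.42 in the pair labelled CD45+), and of Spp1, osteopontin (0.52, and -1.22 in the other pair). In macrophage-like cells the most abundant were Spp1 at 2453, Tgfbi at 215 and Fbln2 at 11.7 CPM, and the part of free RNA in these levels was not tested.

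Receptors for these ligands were found in both compartments. Lrp1, the endocytic receptor that clears thrombospondins, was 1211 CPM in APC-like and 427 CPM in macrophage-like cells, and Itgb1, the beta subunit of fibronectin-binding integrins, was 372 and 440. Cd47 was 484 CPM in APC-like cells and Cd36, a thrombospondin receptor and fatty acid transporter, was 2227 CPM in macrophage-like cells. Of 14 receptors, 12 could be compared in APC-like cells. In the pair labelled CD45- 3 were higher and 0 lower past the fold, beside 2.66% and 2.29% of all genes. In the pair labelled CD45+ 2 were higher and 1 lower, beside 4.36% and 4.83%. The medians were -0.13 and -0.11, with 9 and 8 of 12 below 0. The largest ratios were of Stab1, a scavenger receptor of macrophages and some endothelia (1.78, and 0.46 in the pair labelled CD45+) and Itga4, the alpha 4 integrin subunit (1.65 and 1.37), at levels of 9.80 and 12.3 CPM in the CD45- Tom+ library. In the pair labelled CD45- both genes reached the mean of 5 CPM only through the Tom+ library, so there they could only be called higher. The count of higher receptors in that pair is therefore a description. Leukocytes express both genes, and the part of free RNA in these low levels was not tested.

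Of 11 further targets of YAP and SRF, 8 could be compared in APC-like cells, with medians of -0.18 and -0.07 and 7 and 5 of 8 below 0. None passed the fold in the pair labelled CD45- and 2, both higher, passed in the pair labelled CD45+, beside 4.36% of all genes higher there. Amotl2 (277 CPM), Axl (254) and Vcl (95.5) were the most abundant, and Crim1 and Vcl had the largest ratios of the pair labelled CD45-, both -0.32 (0.16 and -0.34 in the pair labelled CD45+). The 14 dissociation genes had median log2 ratios of 0.01 and 0.00 with none past the fold. Ier3 had -0.32 and 0.02 and Nr4a1 -0.18 and -0.37.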

How the data were processed

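The authors made single-cell libraries with the 10x Genomics Chromium chemistry that reads mRNA 3' ends, processed them with Cell Ranger 3.0.2 against mm10 (per the submitters' processing notes) and deposited, for each library, raw counts, that is whole-number UMI counts per gene and barcode without normalization. The study's filter was applied to barcodes: genes above 1000 and below 7000, mitochondrial share below 8% (4145, 4038, 1981 and 4818 barcodes in the order of the report). Of these, 259, 364, 54 and 427 with the highest Scrublet scores (0.8% per 1000 barcodes) were left out. Clustering of the 4 libraries together used scanpy 1.11.5 with 10000 counts per cell, 2000 variable genes without the members, the other lists and tdTomato, 30 principal components, 15 neighbours and Leiden resolution 1 (leidenalg 0.10.2).

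Clusters were named from fixed marker lists, a marker being raised at 20 CPM and 4 times the median cluster, with at least 3 raised; these thresholds, and the split at 1000 CPM of Arg1, were set after seeing the data. CPM carry exact Poisson intervals and log2 ratios conditional exact intervals. Shares of cells were also taken after thinning to 2000 UMIs. Ratios were counted where a gene's mean over the pair reached 5 CPM. The computation was tested on simulated data. The study's test over cells was not used, since cells are not replicates.

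The members and lists were chosen with earlier results of these data known. The genes named are the 8 members, the 3 most abundant and the 2 with the largest APC-like ratio of each list, and the 3 genes most like each member. Genes leading a cluster are named outside this rule, after their values were seen. Alternatives to the filter, doublet removal, clustering, free RNA source and summing were run. Promoter sequences came from RefSeq on GRCm38.p6.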

Additional observations from a re-analysis of the deposited data

Results flagged for a closer look

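Barcodes that the quality filter or the doublet step left out held Fn1 well above the limit that a count of 0 allows, at 1266 CPM in the library labelled CD45- Tom+, 2286 in CD45- Tom-, 1100 in CD45+ Tom+ and 2336 in CD45+ Tom-. The Tom- libraries were higher than the Tom+ libraries there too. Which cells these barcodes come from was not tested.

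In APC-like cells the Tom+ over Tom- log2 ratio had opposite signs in the pairs labelled CD45- and CD45+ for Thbs2 (-0.13 and 0.17) and for Ctgf (-0.14 and 0.24). The Thbs2 contrast was lost under 2 of 11 alternatives, where the ratio of the pair labelled CD45+ was -0.33 (cluster 23 counted as APC-like) and -0.06 (1 mix of APC-like clusters), and Ctgf kept its signs under all 11. The difference between the pairs was not tested, since each value rests on 1 library per group.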

How the results depend on the processing

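The number of genes highest in a stromal class stayed within 6 to 8 under every alternative. Where the count was 8, Fn1 too was highest in a stromal class and was no longer the exception. Fn1 in macrophage-like cells lay above the free RNA expectation under each alternative, with the following log2 ratios in library order, beside 4.29, 5.75, 4.23 and 4.76 in the report. They were 2.43, 2.75, 2.62 and 2.25 with doublets kept, 4.43, 5.63, 4.83 and 5.31 with 4000 variable genes, 5.63, 6.53, 5.48 and 6.68 with free RNA read from barcodes under 1000 genes, 5.97, 6.19, 5.69 and 5.27 through 3 collagen genes, and 7.78, 7.89, 7.97 and 7.75 with the APC-like ratio. For CD45- Tom-, CD45+ Tom+ and CD45+ Tom- they were 5.62, 4.69 and 5.32 at Leiden resolution 2, 5.57, 4.72 and 5.26 without immunoglobulin genes, 5.52, 4.78 and 5.12 with thinned cells, 5.42, 4.72 and 5.20 as per-cell means, and 5.59, 5.34 and 5.57 with low barcodes found in 1 library. A looser filter (500 genes, 20% mitochondrial) gave 5.36 and 5.16 for the Tom- libraries labelled CD45- and CD45+. In Arg1-low macrophage-like cells of CD45+ Tom+ the value turned from -0.62 to 0.80 (looser filter), 1.93 (resolution 2), 0.84 (4000 genes), 0.17 (no immunoglobulin genes), 0.68 (thinned), 0.62 (per-cell mean), 0.62 (low barcodes), 1.13 (collagens), 0.48 (low barcodes of 1 library) and 3.11 (APC-like ratio). In APC-like cells, counting the 103 cells of cluster 23, with APC and plasma cell markers, raised the genes past the fold from 0 to 5 (CD45- pair) and from 1 to 2 (CD45+ pair). In the latter pair the count was 2 without immunoglobulin genes and 0 with the looser filter, with per-cell means or with 1 mix of APC-like clusters. In macrophage-like cells it went from 5 to 3 (CD45-) with 1 mix of clusters and to 2 in both pairs with free RNA subtracted. The causes were not tested, and the counts under these alternatives have no share over all genes beside them. Over the alternatives the APC-like Fn1 ratio ran from -0.65 to -0.24 (CD45-) and from -0.70 to -0.33 (CD45+). The low barcodes of 1 library, the APC-like ratio, the shared cells left out, cluster 23 and the mixes of macrophage clusters were chosen after seeing the data. No paired analysis was possible because each group has 1 library.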

Other observations

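Cluster 21 (225 cells), with cycling, macrophage and plasma cell markers raised and kept without a name, had Fn1 at 347, 2193, 200 and 3440 CPM in library order, from 128, 10, 50 and 37 cells, and the 10% of cells with the most UMIs held 91.0% of its Fn1. Cluster 18 (259 cells), with macrophage and plasma cell markers raised, had 80.4 and 29.1 CPM in the Tom+ libraries. Cluster 23 (103 cells), with APC and plasma cell markers raised, had Fn1 at 768 and 703 CPM and Postn at 253 and 353 CPM in the Tom+ libraries labelled CD45- and CD45+.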
